A study of Mus musculus with 2 samples.

Results

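Hair follicle cells that the deposited tables of named cells leave out made up 337 of the 6773 barcodes that passed the filters, 118 in the normal library and 219 in the wounded library. They were selected on their UMIs (unique molecular identifiers, 1 for each captured transcript). Such a barcode had over 200 and under 5000 detected genes and under 25% mitochondrial UMIs, was absent from the table of named cells of its own library, held 2 or more UMIs summed over Lhx2, Lgr5 and Tbx1, and held under 5 UMIs summed over the fibroblast genes Col1a1, Col1a2, Col3a1, Dcn and Pdgfra. Microdissected tissue of the anorectal junction came from C57/BL6J mice carrying K17CreERT2, a tamoxifen-inducible Cre driven by the Krt17 promoter, and R26RGFP, a fluorescent reporter that the Cre switches on. Mice of both groups received tamoxifen. The normal group was otherwise untreated, and the wounded group was sampled 1 week after rectal crypts next to the junction had been removed with hot EDTA and a mechanical wound, in mice 2 to 4 months old. Cells of at least 5 mice were pooled, sorted and sequenced as 1 library per condition, and the study describes a sort of live cells with Epcam, a surface protein of most epithelial cells, and without CD45, CD11b, CD31 and PDGFRa, proteins of leukocytes, endothelium and fibroblasts. With 1 library per condition, the wound cannot be told apart from the library, cells of a library are not replicates, and no test was made between conditions.

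The hair follicle is an appendage of the skin that alternates between growth and rest. Its stem cells lie in the bulge, where the transcription factors Lhx2 and Tbx1 are known to act, and in the hair germ below it, where cells with Lgr5, a receptor for R-spondins that amplifies Wnt signals, divide early in the growth phase. An outer root sheath of keratinocytes with Krt5 and Krt14 continues upwards into the epidermis, while a companion or inner bulge layer with Krt6a and Krt75 faces the hair shaft. Lgr5 also marks the stem cells of intestinal crypts, and the tissue dissected here borders both hairy skin and rectum.

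The normal library held 2564 barcodes with 17617944 UMIs, of which 1548 passed the filters, and the wounded library held 17216 barcodes with 88260050 UMIs, of which 5225 passed. Of the passing barcodes, 610 in the normal and 1078 in the wounded library were absent from the deposited tables. The hair follicle cells were 19.3% (16.3 to 22.7) of these absent barcodes in the normal and 20.3% (18.0 to 22.8) in the wounded library, and 7.62% (6.35 to 9.06) and 4.19% (3.66 to 4.77) of all passing barcodes. The study describes an extra removal of cells by Lgr5, Lhx2 and Tbx1 for the normal sample only, so these shares compare cells left out by different steps. Ranges in brackets are exact 95% intervals (Clopper-Pearson for shares, Poisson for levels, binomial for log2 ratios) and cover counting error only. The fibroblast limit removed 4 and 5 barcodes with enough marker UMIs. No barcode sequence among the hair follicle cells occurred in both libraries. Their depth ran from 1033 to 21719 UMIs with a median of 7178 in the normal library, and from 1243 to 29625 with a median of 8351 in the wounded library. The median mitochondrial share was 3.85% in the normal and 6.41% in the wounded hair follicle cells. It was 4.77% and 8.53% in the cells that the authors named Basal, so both groups of cells had the higher share in the wounded library.

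Lhx2 (ENSMUSG00000000247, chr2:38339281-38369733, plus strand, GRCm38) gave the largest number of selecting UMIs in both libraries, with 282 UMIs in 101 of 118 normal cells and 470 UMIs in 181 of 219 wounded cells. Tbx1 (chr16:18580979-18590671, minus strand) had 278 UMIs in 92 normal and 393 UMIs in 168 wounded cells. Lgr5 (chr10:115450311-115587780, minus strand) was found in fewer cells, with 89 UMIs in 47 normal and 248 UMIs in 114 wounded cells. The commonest pattern in the normal library was Lhx2 with Tbx1 and no Lgr5, in 50 cells, while 29 cells held all 3 genes. Of the wounded cells 67 held all 3 genes and 66 held Lhx2 with Tbx1. Lhx2 alone made up the sum in 15 and 25 cells, Tbx1 alone in 6 and 14, and Lgr5 alone in 4 and 3. These counts follow from the selection and are no check of it.

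The sum of the 3 genes had a median of 4 UMIs in both libraries and reached 33 UMIs in a normal and 19 in a wounded cell, and 24 normal and 48 wounded cells sat exactly at the minimum of 2. Levels here are UMIs of a gene summed over cells per 1000000 summed UMIs (CPM). Cxcl14, a chemokine of the bulge and epidermis, was at 2916 CPM in normal cells with exactly 2 selecting UMIs, 3017 CPM in those with 3 or more, 1489 CPM in the 41 left-out cells with 1 such UMI, and 88.6 CPM in the 386 left-out cells with none, all under the fibroblast limit. In the wounded library the same order of cells gave 2347, 2838, 2190 and 44.8 CPM, with 60 cells at 1 UMI and 511 at none. Krt42, a type I keratin, was at 757, 596, 270 and 3.7 CPM in the normal library and at 645, 462, 302 and 7.4 CPM in the wounded library. For both genes the cells with 1 selecting UMI, which the rule left outside, lay between the members and the cells with none. Wfdc18, a secreted protein, was at 1264 CPM in the normal and 1499 CPM in the wounded cells with 1 UMI, above the 921 and 576 CPM of those with 3 or more. In the wounded library Sox9, a transcription factor of the bulge, was at 578 CPM with 1 UMI and 397 CPM with 3 or more, Barx2 at 427 and 331 CPM, and Postn at 482 and 450 CPM. The normal values of these 3 genes went the other way, with 416 and 456 CPM for Sox9, 319 and 519 CPM for Barx2, and 263 and 530 CPM for Postn.

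Few cells of the deposited tables would have met the same marker rule, 3 of 939 in the normal and 67 of 4147 in the wounded library. None of the 257 normal Basal cells met it, and the authors had removed cells expressing Lgr5, Lhx2 or Tbx1 from that cluster, so its low values for these genes are partly its own selection. Among the wounded cells named Hybrid, 18 of 316 met the rule, 5.70% (3.41 to 8.85), and 17 of the 397 Rectum cells, 4.28%. The Rectum cells met it through the crypt gene, with Lgr5 in 16 of them, Lhx2 in 1 and Tbx1 in 0. Lhx2 stood at 43.2 CPM in the Hybrid cells, where 51 of its 64 UMIs lay in 16 of the 18 cells that met the rule, against 231 CPM (selected on) in the wounded hair follicle cells and 3.14 CPM in the wounded Basal cells.

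The name of the cells was checked against genes that the rule did not use. Sox9 was at 462 CPM in normal and 440 CPM in wounded hair follicle cells, against 156 and 23.0 CPM in Basal and 61.1 and 116 CPM in Rectum cells. Cxcl14 stood at 3001 and 2736 CPM, against 238 and 26.8 CPM in Basal cells. Cd34, a surface glycoprotein by which mouse bulge cells are sorted, was low, at 47.9 and 41.2 CPM against 18.9 and 2.09 CPM in Basal cells. Krt15, a keratin of bulge and basal cells, did not set the hair follicle cells apart, with 2925 CPM in the normal cells against 2878 CPM in Basal cells, and 1613 against 1259 CPM in the wounded library. Its log2 ratio to Basal cells was 0.02 (-0.04 to 0.09) in the normal and 0.36 (0.30 to 0.42) in the wounded library. In the normal library its sign depended on the setting, with -0.44 in cells with 2 or more UMIs of Lhx2 alone, -0.19 when mitochondrial and ribosomal protein genes were left out of the total, and 0.32 by the mean of per-cell shares.

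**Figure D1:**
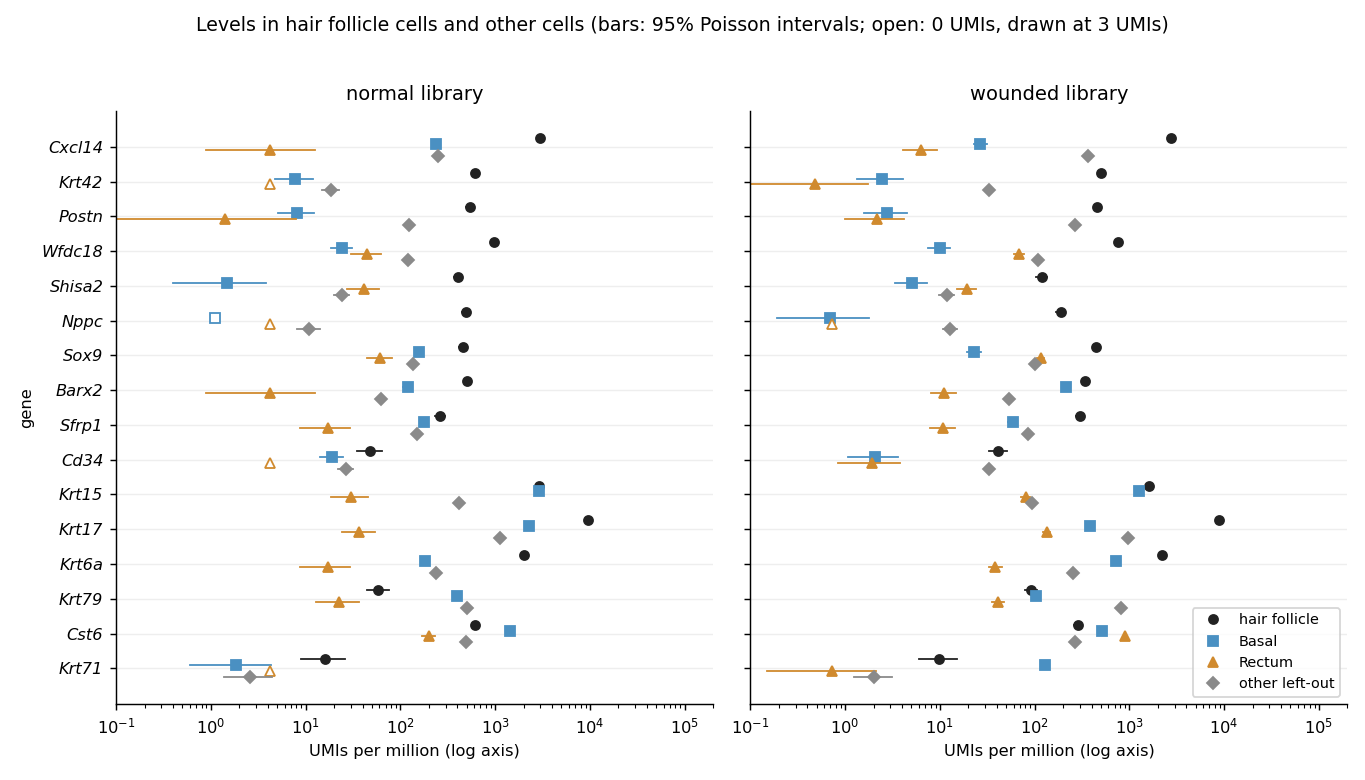
Levels in CPM on a log axis of 16 genes in hair follicle cells (black circles), Basal cells (blue squares), Rectum cells (orange triangles) and the other left-out cells (grey diamonds), with exact 95% Poisson intervals as bars and open symbols drawn at the 3-UMI floor where no UMI was found. Cxcl14, Krt42, Postn and Nppc lie rightmost in the hair follicle cells of both libraries, Krt15 lies together with Basal cells, and Krt79 and Cst6 lie to the left of Basal cells in the normal library.

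For the shares of cells in which a gene was found, 2000 UMIs were drawn from every cell (thinning), which left 113 normal and 213 wounded hair follicle cells. Cxcl14 was then found in 84.1% of normal and 84.5% of wounded hair follicle cells, in 31.8% and 3.72% of Basal cells, and in 1.67% and 0.85% of Rectum cells, which stand here for free RNA since the glandular epithelium should lack the gene. Rectum cells were deeper, with medians of 10885 and 9991 UMIs. Sox9 was found in 54.9% and 53.1% of hair follicle cells after thinning and in 81.4% and 77.6% before it, against 11.7% and 19.2% of thinned Rectum cells. Rectum cells are no measure of free RNA for Sox9, whose level in wounded Rectum cells was above that in wounded Basal cells. Krt15 was found in 63.7% and 67.6% after thinning and 74.6% and 76.7% before, with 5.0% and 5.08% of Rectum cells. Postn was found in 29.2% (21.0 to 38.5) and 25.8% (20.1 to 32.2) after thinning, 34.7% and 35.6% before, against 1.67% and 0.56% of Rectum cells. Krt42 was in 19.5% (12.6 to 28.0) and 15.5% (10.9 to 21.1) after thinning, 27.1% and 25.1% before, and in 0 of 60 (a limit of 5.0% at 3 counts) and 0.56% of Rectum cells. Each of these shares lay above that in Rectum cells, and Sox9, Cxcl14 and Krt15 were found in more than 50% of the thinned cells while Postn and Krt42 were found in fewer.

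The comparison with Basal cells asks what the left-out cells expressed that the cells named Basal in the same library did not. A gene was called higher or lower where its level differed by 2-fold or more and the 95% interval of its log2 ratio held no 0, among genes with 20 or more UMIs in the pair of groups. In the normal library 11.7% of 9397 genes were higher (1101 genes) and 5.48% lower (515 genes) in hair follicle cells, and in the wounded library 14.2% of 11244 genes were higher (1600) and 8.16% lower (917). With mitochondrial and ribosomal protein genes left out of the totals, the log2 ratios moved by -0.21 in the normal and -0.15 in the wounded library, and the normal counts became 811 higher and 718 lower. Since the hair follicle cells were chosen by being left out, and Basal cells by being kept, these counts describe the choice and are not evidence about it. Basal cells were also not 1 constant reference, since Krt13, a keratin of internal stratified epithelia, was at 3.0 CPM in normal and 1443 CPM in wounded Basal cells. The list of epidermal differentiation genes had a median log2 ratio of 5.36 in Basal cells, wounded over normal. Basal is therefore used here as the authors' label only.

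The genes with the largest ratios to Basal cells, among those with 100 or more UMIs in the hair follicle cells, included 6 genes common to both libraries, of which the rule had used 1. Nppc (chr1:86666291-86670571, minus strand), which encodes C-type natriuretic peptide, had 464 UMIs in 28 normal hair follicle cells and none in Basal cells, a log2 ratio of at least 8.80 when 3 UMIs are taken for the Basal cells together. In the wounded library it had 384 UMIs in 48 cells against 4 UMIs in Basal cells, a log2 ratio of 8.08. Mfap2, a protein of elastic microfibrils, stood at 113.9 and 93.3 CPM, with log2 ratios of 8.27 and 7.48. Krt42 (chr11:100262882-100269871, minus strand, next to Krt17 at chr11:100256217-100261029) stood at 620 and 500 CPM, with log2 ratios of 6.32 (5.69 to 7.02) and 7.68 (6.93 to 8.55). Postn (chr3:54361109-54391037, plus strand), which encodes the matrix protein periostin, stood at 542 and 457 CPM, with log2 ratios of 6.06 (5.44 to 6.74) and 7.36 (6.65 to 8.17). Wfdc18, which carries a whey acidic protein domain, stood at 976 and 763 CPM, with log2 ratios of 5.34 and 6.26. The selecting gene Lhx2 completed the 6. Each of the other genes lay at least 5.34 log2 units above Basal cells in both libraries.

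The other leading genes led in 1 library, and all but Igfbp7 were also called higher in the other. Shisa2, a protein of the endoplasmic reticulum that holds back Wnt and FGF receptors, was at 408 CPM in normal hair follicle cells, with a log2 ratio of 8.11, and at 118 CPM in wounded ones. Gjb2, the gap junction protein connexin 26, was at 363 and 274 CPM, with log2 ratios of 6.62 and 4.02. Id4, an inhibitor of helix-loop-helix transcription factors and a target of BMP signals, had log2 ratios of 4.85 and 3.16, the calmodulin-binding Pcp4 of 5.38 and 1.83, and the predicted gene Gm973 of 6.24 and 5.82. Igfbp7, a secreted binding protein, was called in the normal library only, with 4.60 and 0.21, since its Basal level was 13.7 CPM in the normal and 180 CPM in the wounded library. Among the genes leading in the wounded library, Scrg1 had a log2 ratio of 9.22, the amino acid transporter Slc7a8 of 7.99 (2.42 in the normal library), the sialic acid hydroxylase Cmah of 7.18 (3.50), the ubiquitin ligase Pdzrn3 of 6.84 (4.57), the kinase Dclk1 of 6.18 (5.13) and Hoxc13, a homeobox factor of the hair matrix, of 6.19. Ccl21a, a chemokine of lymphatic endothelium, ranked among the normal leaders through 342 UMIs that all lay in 1 cell, and Tagln, an actin-binding protein, ranked in the wounded library with 723 UMIs in 72 cells.

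Genes of the bulge were mostly above Basal cells. Of 20 listed bulge genes other than the selecting ones, 17 could be compared in the normal library. Of these 10 were higher and 2 lower, where 11.7% and 5.48% of all genes were, with a median log2 ratio of 1.46 against 0.23 over all genes tested. Among genes with 100 or more UMIs the normal count was 5 higher and 2 lower. In the wounded library 11 of 16 were higher and 0 lower, where 14.2% and 8.16% of all genes were, with a median of 2.50 against 0.18. Nfatc1, a factor that holds bulge cells at rest, had log2 ratios of 2.11 and 3.01, Grem1, a BMP antagonist, of 6.23 and 6.35, and Dkk3, a member of the Dickkopf family, of 1.67 and 2.64. Sox9 had 1.57 (1.37 to 1.76) and 4.26 (3.99 to 4.53), and Cd34 1.34 (0.73 to 1.95) and 4.30 (3.42 to 5.31), both larger in the wounded library, where their Basal levels were lower. Without the cells holding 5 or more UMIs of another cell type's markers, Cd34 lost its call in the normal library, at 0.68 (-0.07 to 1.40), and kept it in the wounded library, at 4.11. That setting counts Tagln as a muscle marker, and it took out cells that also held follicle genes. Among these was a normal cell with 26 UMIs of Tagln, 9 of Cd34, 77 of Krt17 and 26 of Cxcl14. Whether the lost call reflects other cell types was not tested. The normal call of the Wnt inhibitor Wif1 rested on 26 UMIs, of which 20 lay in 1 cell. Sfrp1, a secreted Wnt antagonist, and Tcf7l1, a repressor of Wnt targets, were called in the wounded library only, with 2.36 and 2.97. Foxc1, another factor of bulge quiescence, was lower in the normal library at -1.55 and stood at 0.46 in the wounded one, and Ctnnal1 was the other gene called lower.

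Genes of neighbouring compartments are given beside the shares over all genes, 11.7% higher and 5.48% lower in the normal and 14.2% higher and 8.16% lower in the wounded library. Of the inner bulge and companion layer list, 4 of 5 genes were higher in the normal library, namely Krt6a, Krt16, Krt75 and Sbsn. These 4 genes and Timp3, an inhibitor of metalloproteinases, were higher and Krt6b was lower in the wounded library, of 6 genes. Krt6a had log2 ratios of 3.47 and 1.62. Krt75, a companion layer keratin, had 5.92 and 3.94, but 54 of its 63 normal UMIs and 218 of its 223 wounded UMIs lay in 1 cell of each library, and the cells with 10 or more UMIs of Krt6a described later held 5 and 0 of them. Of the hair germ list 3 of 4 genes were higher in the normal and 4 of 5 in the wounded library, among them Pthlh, a parathyroid hormone-related peptide, with 4.24 and 4.63. The remaining wounded gene of that list, Tnfrsf19, was lower at -4.85. The outer root sheath list had 4 of 9 higher in the normal library, Krt5, Krt14, Krt17 and Barx2, and 2 of 9 in the wounded library, Krt17 and Sostdc1, a share near that of all genes with a median of 0.38 against 0.18. Krt17 had log2 ratios of 2.09 and 4.53, from 9659 and 8812 CPM in hair follicle cells against 2265 and 381 CPM in Basal cells. The upper follicle list went the other way in the normal library, where 5 of 6 genes were lower and none higher, with Krt79, a keratin of the infundibulum, at -2.74, Gata6, a factor of the upper duct, at -4.23 and the antimicrobial Defb6 at -4.11. Of its 8 genes in the wounded library 3 were lower, Defb6, Gata6 and Plet1, and 2 higher, Lrig1 and Klk7 (all 20 UMIs in 1 cell), while Krt79 was at -0.17.

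Genes of the inner root sheath had 3 of 5 members higher than in Basal cells in the normal library and none lower, and 2 of 8 higher and 6 lower in the wounded library. Over all genes 11.7% were higher and 5.48% lower in the normal library, and 14.2% and 8.16% in the wounded library. The keratin Krt71 was at 16.0 CPM (15 UMIs in 8 cells) in normal hair follicle cells, a log2 ratio of 3.11 to the 1.85 CPM of Basal cells. It was at 9.82 CPM in the wounded ones, a log2 ratio of -3.73 to the 130 CPM of Basal cells, whose 746 UMIs lay in 5 cells, and at 461 CPM in the Hybrid cells. The other members called higher, Gata3 and Trps1, transcription factors that outer layers also use, were higher in both libraries, at 1.31 and 1.21 for Gata3 and 2.27 and 1.96 for Trps1. Of the hair matrix and shaft list, 4 and 3 genes of 13 had enough UMIs to be compared.

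Signalling genes were compared by their place in each pathway, against the same shares over all genes (11.7% higher and 5.48% lower in the normal, 14.2% and 8.16% in the wounded library) and all-gene medians of 0.23 and 0.18. Among Wnt genes, 7 of 20 were higher and 2 lower in the normal library, and 12 of 28 were higher and 8 lower in the wounded library, with medians of 0.64 and 0.78. The higher genes of both libraries included the selecting gene Lgr5, whose level the rule partly fixed, so these counts and medians are partly set by the selection. The receptors Fzd1 (1.24 and 1.33), Fzd2 (1.91 and 2.64) and Lrp6 (1.26 and 1.97) and the nuclear effector Tcf7l2 (1.43 and 1.41) were higher in both, and the ligand Wnt10a was lower in both (-2.37 and -1.75). Further ligands called lower were Wnt6 in the normal library and Wnt3, Wnt4, Wnt7b and Wnt16 in the wounded library. The receptor Fzd10, Apcdd1 and Notum were lower in the wounded library too, where the receptors Fzd3 and Fzd7 were higher. No Wnt ligand was called higher. Of the hedgehog genes, the receptor Ptch1, itself a target of the pathway, was higher in both (2.26 and 2.10), and the effectors Gli1 (3.04) and Gli2 in the wounded library. Of BMP and TGF-beta genes 8 of 18 were higher and 1 lower in the normal library and 10 of 19 higher and 2 lower in the wounded library, with the target Id2 at 1.46 and 2.01, the receptor Bmpr2 at 1.25 and 1.09, and the activin subunit gene Inhbb at 1.40 and 5.16, while the activin antagonist Fst was lower in the normal library (-2.92) and the ligands Bmp2 and Bmp4 in the wounded one (5 against 53 and 0 against 44 UMIs in Basal cells). The FGF receptors Fgfr1 (1.53 and 4.15) and Fgfr3 (2.80 and 1.75) were higher in both.

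Genes of the matrix and of adhesion had 7 of 18 members higher and none lower in the normal library, and 8 of 20 higher and none lower in the wounded one, beside medians of 0.49 and 0.73, where 11.7% and 14.2% of all genes were higher and 5.48% and 8.16% lower. Thrombospondin 1 (Thbs1, 2.06 and 3.73), the bulge matrix protein Egfl6 (3.56 and 2.55) and the basement membrane chains Col4a1 (2.85 and 4.70) and Col4a2 (2.91 and 5.43) were higher in both, as was tenascin C. Col17a1, a hemidesmosome collagen of basal cells, was at 0.14 and -0.18. Against the same shares, no cell cycle gene was higher in either library. Of 16 such genes 3 were lower in the normal and 9 in the wounded library, with the proliferation marker Mki67 at -1.04 and -1.75. Immediate-early genes differed in how they compared with Basal cells, with 1 of 15 higher in the normal library and 14 of 15 in the wounded library (11.7% and 14.2% of all genes), where Fos was at 3.45, Jun at 3.36 and Junb at 2.30. Those genes stood lower in wounded than in normal Basal cells, with a median log2 ratio of -3.35 over the list.

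**Figure D2:**
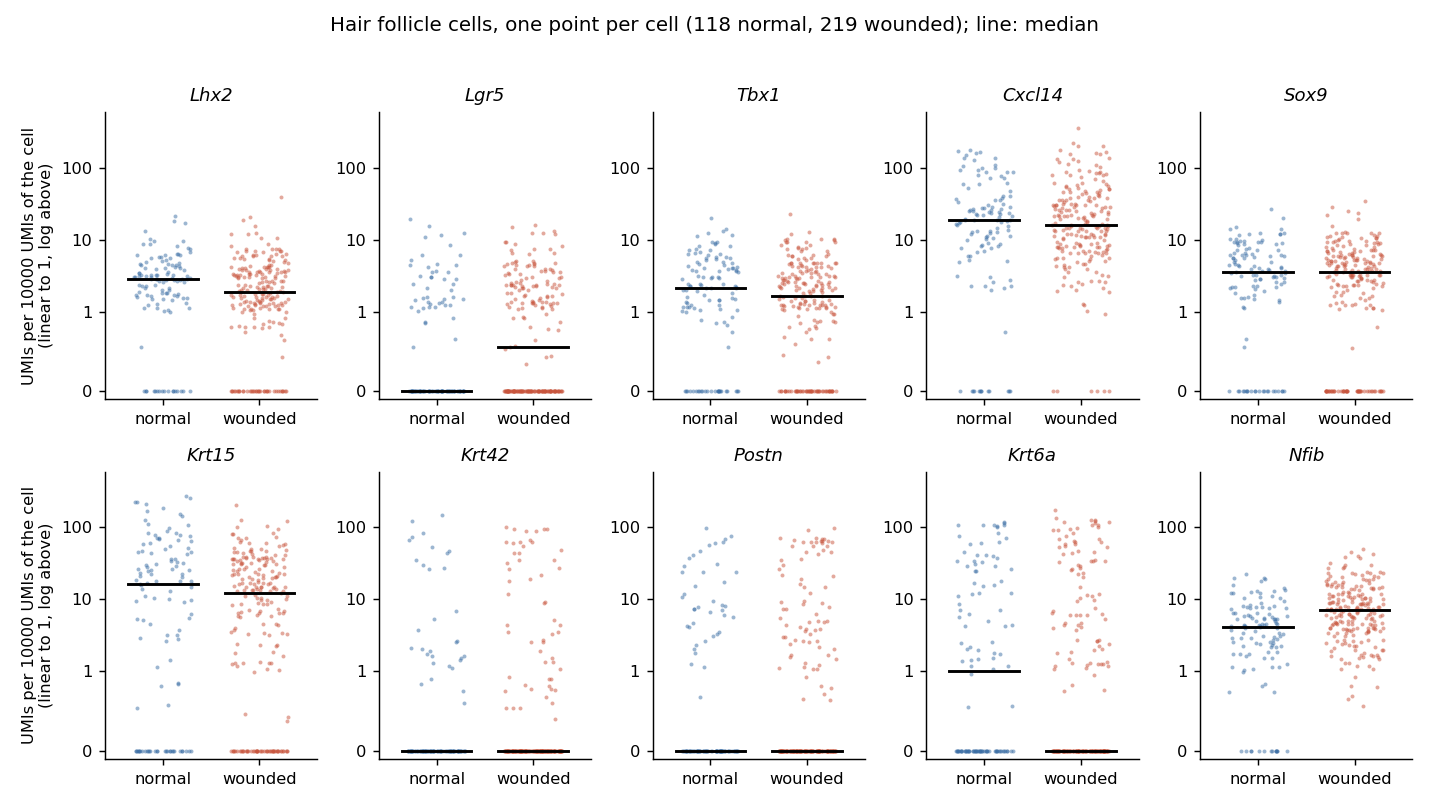
UMIs per 10000 UMIs of the cell (linear to 1, log above) of 10 genes in each of the 118 normal and 219 wounded hair follicle cells, with the median as a line, the first 3 genes being those the cells were selected on. Cxcl14, Sox9, Krt15 and Nfib spread over most cells of both libraries, while Krt42, Postn and Krt6a have medians at or near 0 and reach 149, 99.5 and 175 in single cells.

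Within each library the cells were not uniform. Cxcl14 ran from 0 through a median of 13 to 152 UMIs a cell in the normal and from 0 through 13 to 171 in the wounded library. Krt15 ran from 0 through 9 to 230 and from 0 through 9 to 150. Most cells held some of either gene. The ranges of the libraries overlapped, and the highest Krt15 cells were normal ones. Krt42 had a median of 0 and a highest cell of 157 in the normal and 114 in the wounded library, Postn a median of 0 and a highest cell of 61 and 73, and Krt6a medians of 1 and 0 and highest cells of 181 and 280. At least 50% of the cells therefore held 0 or 1 UMI of each of these 3 genes.

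Postn and Krt6a were high in different cells. With minimums chosen after the values were seen, 21 normal cells (17.8%) and 40 wounded cells (18.3%) had 5 or more UMIs of Postn, and 34 (28.8%) and 48 (21.9%) had 10 or more of Krt6a. The overlap was 0 cells in the normal library, and 3 in the wounded library, which were 7.50% of the Postn cells and 6.25% of the Krt6a cells. These are ranges and not cell types, since another 20 and 38 cells held Postn UMIs under the minimum and 28 and 45 cells Krt6a UMIs under theirs. Median depths were 6713 and 6338 UMIs in the Postn cells, and 9443 and 12688 UMIs in the Krt6a cells, so the Krt6a cells were the deeper ones.

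Cxcl14 stood at 9053 CPM in the normal and 8383 CPM in the wounded Postn cells, Nppc at 2845 and 1144, Krt42 at 1588 and 2142, and Krt15 at 4880 and 3147. Col17a1 stood at 505 and 514 CPM in them against 9 and 35 CPM in the Krt6a cells. Gjb2 was almost missing, with 0 and 4 CPM. Fos stood at 9694 CPM in the normal and 2284 CPM in the wounded Postn cells.

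In the cells with Krt6a, Krt14 stood at 24608 and 21421 CPM, Krt17 at 18106 and 16050, Krt16 at 1739 and 2933, and Sbsn, a secreted protein of suprabasal cells, at 2873 and 3086. Krt15, at 1292 and 445 CPM, was lower there than in the Postn cells, and Cd34 was at 6 CPM in both libraries. Of the selecting genes, Lhx2 was at 246 and 165 CPM, Tbx1 at 145 and 68 CPM and Lgr5 at 18 and 15 CPM.

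Cells with 2 or more UMIs of Lgr5 numbered 20 (16.9%) in the normal and 62 (28.3%) in the wounded library, with 27 and 52 further cells at 1 UMI. As 2 UMIs of Lgr5 alone meet the selection rule, these shares and the overlaps below are partly set by the selection. They were counted without thinning. The Lgr5 cells shared 5 and 3 cells with the Postn cells and 1 and 1 with the Krt6a cells. Krt15 stood at 4871 and 1915 CPM in them, Timp3 at 261 and 677, and Ptch1 at 98 and 139. Cells with 2 or more UMIs of Mki67 and Top2a together, a sign of division, numbered 8 (6.78%) and 20 (9.13%). Of these 3 and 11 also had 2 or more UMIs of Lgr5, which is 37.5% and 55.0% of the cycling cells and 15% and 17.7% of the Lgr5 cells. The cycling cells were deeper, with medians of 11398 and 9032.5 UMIs against 7178 and 8351 in all hair follicle cells. A further 49 (41.5%) and 76 (34.7%) cells reached none of the minimums for Postn, Krt6a and Lgr5, and held Gjb2 at 607 and 463 CPM.

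**Figure D3:**
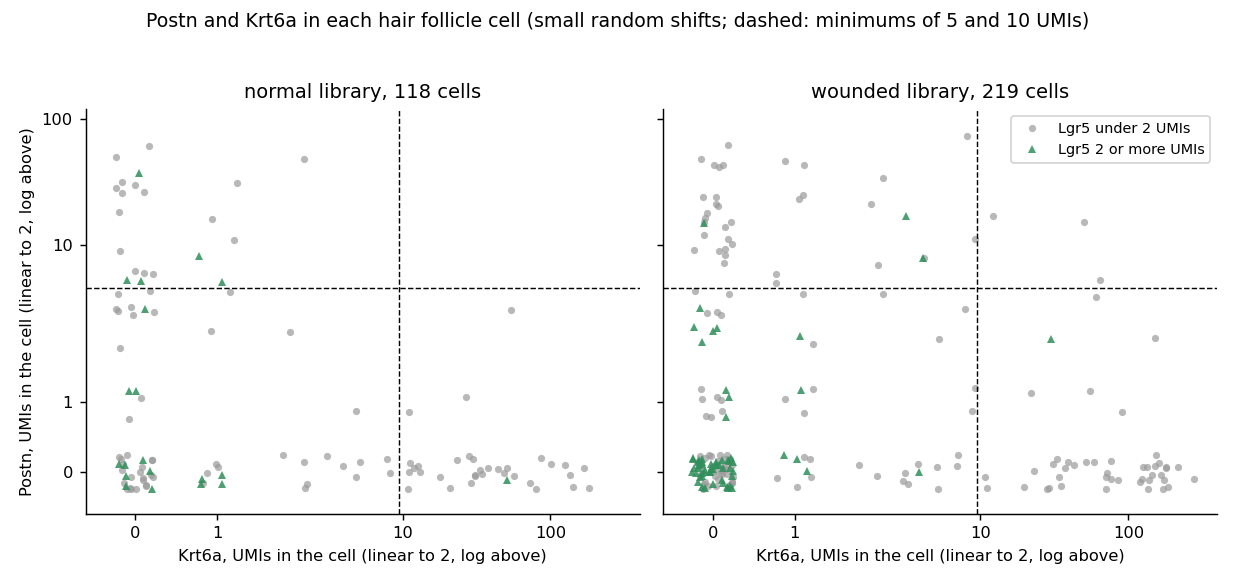
UMIs of Krt6a (horizontal) and Postn (vertical), linear to 2 and log above, in each hair follicle cell, with small random shifts and dashed lines at the minimums of 10 and 5 UMIs chosen after the values were seen. The field above both minimums holds 0 normal and 3 wounded cells, and the cells with 2 or more UMIs of Lgr5 (green triangles) lie mostly at low values of both genes.

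The wounded and normal hair follicle cells were compared to describe what differed between the libraries 1 week after the wound. The extra removal by Lgr5, Lhx2 and Tbx1 is described for the normal sample only, so the cells of the libraries were not chosen alike. Of the cells kept in the deposited tables, 3 of 939 normal and 67 of 4147 wounded ones met the marker rule. The part of this difference in the ratios below was not tested. Of 9265 genes, 7.75% were higher (718 genes) and 8.36% lower (775 genes) in the wounded cells, with a median log2 ratio of -0.09 over all genes. Without mitochondrial and ribosomal protein genes in the totals, all ratios moved by 0.10 and the counts became 910 higher and 624 lower. The libraries were also processed with different Cell Ranger versions and feature tables, so list medians in Basal and Rectum cells of the same libraries are given beside those of the hair follicle cells. Without the genes past 2-fold the same way in Rectum cells, a setting chosen after the data were seen, the counts were 432 higher and 561 lower. The part of the processing in the other calls was not tested.

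Follicle lists are given here beside the 7.75% of all genes called higher and 8.36% called lower. Of 18 bulge genes none was higher and 2 were lower, and the median log2 ratio was -0.13, with -1.53 in Basal and 0.53 in Rectum cells. None of the 16 follicle transcription factors and none of the 9 outer root sheath genes was called, with medians of 0.09 and -0.13, beside -0.09 and 0.49 in Basal and 0.82 and 1.64 in Rectum cells. The 16 factors included the selecting genes Lhx2 and Tbx1, so their count and median are partly set by the selection. Of the hair germ list 2 of 5 genes were lower, Msx2 and Pthlh, and of the upper follicle list 2 of 7 were higher, Klk7 and Lgr6, and 2 lower, Cst6 and Defb6. In the companion layer list Krt6b was called higher of 6 genes, with all 31 of its wounded UMIs in 1 cell, and in the matrix and shaft list Dlx3 was called lower of 4. Cxcl14 had a log2 ratio of -0.13, Sox9 of -0.07, Krt17 of -0.13, and Postn of -0.25. The signs of Sox9, Krt17 and Postn turned under alternative settings given in the closing section. Krt15 was at -0.86 (-0.93 to -0.79), short of 2-fold. Nfib, a factor of hair follicle stem cells, was at 0.75, from a median of 3 UMIs a cell in the normal and 5 in the wounded library, and Runx1 at 0.77. Of the bulge genes called lower, the Wnt inhibitor Wif1 rested on 26 normal UMIs of which 20 lay in 1 cell, and Id2 had 298 normal UMIs and 266 wounded UMIs out of 939618 and 2037502, at -1.28. Of the selecting genes, whose levels the rule partly fixed, Lhx2 was at -0.38, Tbx1 at -0.62 and Lgr5 at 0.36.

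Immediate-early genes, which cells switch on within minutes of a stimulus, were lower in the wounded hair follicle cells in 6 of 15 cases and higher in none, beside 8.36% of all genes lower and 7.75% higher. Fos ran from 0 through a median of 2.5 to 187 UMIs a normal cell and from 0 through 1 to 97 a wounded cell, and its log2 ratio was -1.51. Junb, another AP-1 subunit, ran from 0 through 2 to 106 and from 0 through 1 to 49 UMIs, with -1.67. The others were Zfp36 (-2.16), a protein that destabilises mRNA, the phosphatase gene Dusp1 (-1.44), Ier2 (-1.17) and Klf4 (-1.12). The list's median was -0.54, with -3.35 in Basal and 0.43 in Rectum cells. The metallothionein gene Mt2 was at -2.82 (-2.95 to -2.68), from 1825 UMIs in 76 cells to 562 UMIs in 102 cells, and it was lower in Basal (-2.30) and Rectum cells (-1.44) too. For Fos, Junb and Mt2 the libraries overlapped from 0 upwards, and the highest cell was a normal one. Jun was not called, at -0.36, with highest cells of 105 normal and 112 wounded UMIs.

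Of 19 BMP and TGF-beta genes 4 were lower and 1 higher, where 8.36% and 7.75% of all genes were, with a median of -0.12 beside -0.64 in Basal and 0.48 in Rectum cells. The lower ones were the BMP targets Id2, Id3 (-1.11) and Id4 (-1.0) and the BMP pseudoreceptor Bambi (from 13 to 7 UMIs), and the higher one was Smad7, an inhibitor of TGF-beta signals. Id2 was lower in Basal cells too, at -1.83, and Id4 stood at 0.68 there. Id4 lost its call when cells with UMIs of other cell types were left out, at -0.78. In the Wnt list Fzd2 (1.47, from 17 to 102 UMIs) and Lgr6 were higher, and Fzd1 (-1.55, from 77 to 57 UMIs), Lrp5, Znrf3 and Wif1 were lower, of 22 genes set against the same shares, with a median of 0.05, beside -0.77 in Basal and -0.15 in Rectum cells. The 22 genes included the selecting gene Lgr5, which was not called. Fzd1 was lower in Basal and Rectum cells too, at -1.64 and -2.55. Ptch1 was higher at 1.04, and stood at 1.20 in Basal and 0.68 in Rectum cells. Shisa2 was at -1.78, with 1.77 in Basal and -1.10 in Rectum cells, from a median of 3 UMIs a cell in the normal to 1 in the wounded library, and was found in 54.0% and 21.6% of thinned hair follicle cells against 8.33% and 3.95% of Rectum cells. Nppc was at -1.39.

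Of 20 matrix and adhesion genes 3 were higher and none lower, beside 7.75% and 8.36% of all genes, with a median of 0.41 beside 0.51 in Basal and 0.63 in Rectum cells. Dst, which encodes the hemidesmosome plakin dystonin, had 72 UMIs in 43 normal cells and 576 UMIs in 160 wounded cells, a log2 ratio of 1.88 (1.53 to 2.26), and was also higher in Basal cells at 1.54. Col4a1 (1.21, from 35 to 175 UMIs) and the laminin chain gene Lama3 (1.17, from 15 to 73 UMIs) were the others, with -0.64 and 0.88 in Basal cells. Of 9 wound-response genes, against the same shares, Krt6b, the epidermal growth factor receptor ligand Hbegf (1.13, from 42 to 200 UMIs) and the antimicrobial Lcn2 (1.51, from 33 to 204 UMIs, of which 58 in 1 cell) were higher, and the alarmin Il33 was lower at -1.47, from 23 normal UMIs of which 13 lay in 1 cell. The median of the wound list was 0.34, beside 2.0 in Basal and 1.67 in Rectum cells. Krt6a, a keratin of wounded epidermis, was at 0.15, and its sign turned to -0.23 in cells with 3 or more selecting UMIs and to -0.15 when per-cell shares were averaged. The heat shock genes Hspa1b (1.88, from 51 to 407 UMIs) and Hsph1 (1.25) were higher of 8, against 7.75% of all genes, and Hspa1b was higher in Rectum cells too, at 5.65.

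Cell cycle genes had 6 of 16 members lower and none higher, beside 8.36% and 7.75% of all genes, with a median of -0.83 beside -0.29 in Basal and -0.15 in Rectum cells, namely Ccnb1, Ccna2, Cdk1, Birc5, Ube2c and Rrm2. The normal values leaned on few cells, since 40 of the 72 UMIs of Ube2c lay in 1 cell. No gene of the list was called among genes with 100 or more UMIs. Cks2, a cyclin-dependent kinase subunit, was at -2.37, from 119 to 50 UMIs, and Rectum and Basal cells had lower values in the wounded library as well. The share of cycling cells, 6.78% and 9.13%, did not go the way of these levels. It rested on 8 normal and 20 wounded cells, counted without thinning among cells with median depths of 7178 and 8351 UMIs.

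**Figure D4:**
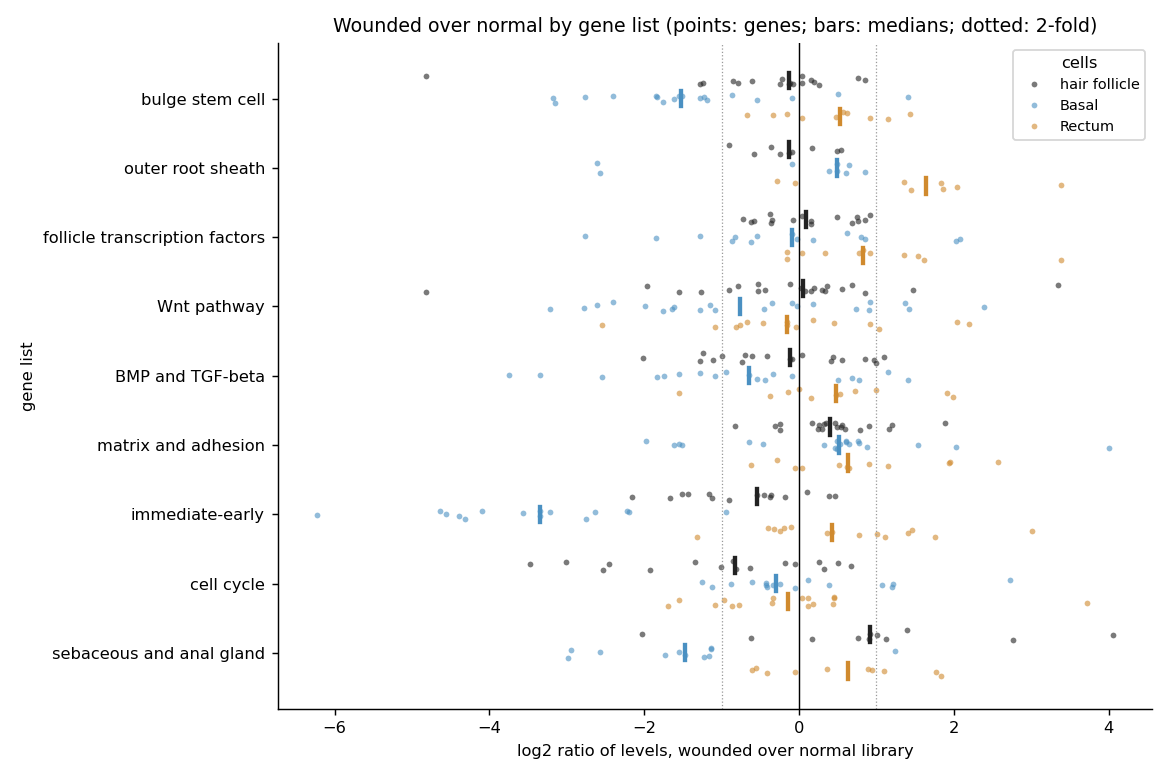
Log2 ratios of levels, wounded over normal library, for genes of 9 lists in hair follicle cells (black), Basal cells (blue) and Rectum cells (orange), with 1 point per gene with UMIs in both libraries, medians as bars and 2-fold as dotted lines. The medians of the hair follicle cells lie at -0.13 for the bulge and outer root sheath lists, at -0.54 for immediate-early genes and at 0.91 for sebaceous and anal gland genes.

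The single genes with the largest ratios between the libraries mostly differed the same way in other cells. Atp6v0c, a subunit of the vacuolar proton pump, had a log2 ratio of 8.64 in hair follicle cells, 9.69 in Basal and 7.37 in Rectum cells. Nme2, a nucleoside diphosphate kinase, had 6.82, 6.67 and 6.64, and Gm42418, a transcript that overlaps ribosomal RNA sequence, 4.95, 5.69 and 4.20. Rnasek (6.34), Adnp (5.99) and Mrpl53 (4.88) were higher in Basal cells as well. Fdx1l, Galnt2 and B3gnt2 had 0 normal UMIs and 159, 126 and 122 wounded UMIs, log2 ratios of at least 4.61, 4.28 and 4.23 with 3 UMIs taken for the normal cells together. Lower in all 3 kinds of cells were Wdr89 (-7.18, -4.71 and -5.04), Ptp4a1 (-4.92), Gstp1 (-3.47), Erh (-2.47), Gm11808 (-2.44) and Lsm5 (-2.40). None of these belongs to a follicle list.

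The remaining leading genes rested on few cells. Slpi, a secreted protease inhibitor, had 642 normal UMIs of which 537 lay in 1 cell and 57 wounded UMIs in 26 cells, a log2 ratio of -4.61 with -4.12 in Basal and 0.68 in Rectum cells, and it stood at -0.24 when cells with UMIs of other cell types were left out. Ccl21a was at -3.81, with -2.09 in Basal cells, and all its 342 normal UMIs lay in 1 cell. Krt13 was at 4.64, with 8.93 in Basal and 1.18 in Rectum cells, and had 213 of its 217 wounded UMIs in 1 cell, and Krt4, its partner keratin, had 99 of its 102 wounded UMIs in 1 cell.

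**Figure D5:**
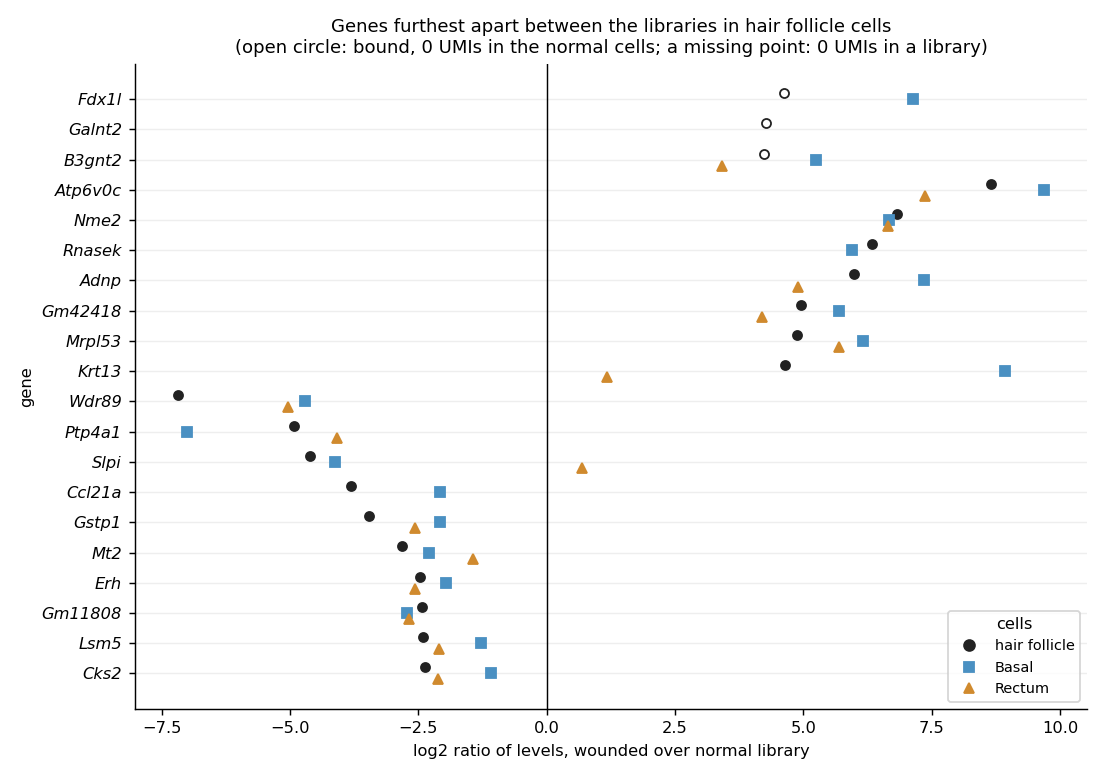
Log2 ratios of levels, wounded over normal library, of the 10 genes highest and 10 genes lowest in hair follicle cells (black circles), with the same ratios in Basal (blue squares) and Rectum cells (orange triangles), where open circles are bounds for genes with 0 normal UMIs. Nme2 lies at 6.82, 6.67 and 6.64 in the 3 kinds of cells, and Slpi lies at -4.61 in hair follicle, -4.12 in Basal and 0.68 in Rectum cells.

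Markers of other cell types were present, and some moved with the library. The sebaceous and anal gland list summed to 537 CPM in normal and 780 CPM in wounded hair follicle cells, against 1238 and 375 CPM in Basal cells and 5717 and 9059 CPM in the other left-out cells, and 17 and 52 hair follicle cells held 5 or more of its UMIs. Against Basal cells 4 of its 10 genes were lower and none higher in the normal library, and 8 of 12 were higher and none lower in the wounded library. Over all genes 11.7% were higher and 5.48% lower in the normal library, and 14.2% and 8.16% in the wounded library. Of the list's 11 genes compared between libraries 5 were higher in the wounded cells and 1 lower, where 7.75% and 8.36% of all genes were. Their median log2 ratio was 0.91, beside -1.47 in Basal and 0.63 in Rectum cells. Scd1, a desaturase of lipid synthesis, was at 1.13 (45 to 213 UMIs), and Cidea and Elovl3 had 26 of 59 and 23 of 36 wounded UMIs in 1 cell. The list's most abundant genes were Plin2 in the normal (157 UMIs in 38 cells) and Mgst1 in the wounded library (401 UMIs in 98 cells), and Far2 was at 0 in the normal library. The muscle list summed to 192 and 476 CPM, against 126 and 10.3 CPM in Basal cells and 1362 and 3109 CPM in the other left-out cells. Most of it came from Tagln, which had 135 UMIs in 22 and 723 UMIs in 72 cells. Myod1, Myf5 and Pax7 were at 0 in both libraries, and Myh11 and Des in the normal library. Tagln stood at 103 and 666 CPM in the Lgr5 cells described above, and at 315 and 558 CPM in those reaching none of the minimums. It was at 0 and 38 CPM in the Postn cells and 53 and 24 CPM in the Krt6a cells. Whether it came from follicle cells or from other cells was not tested. Tagln had a log2 ratio of 1.30 between the libraries, with -5.10 in Basal cells.

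The fibroblast list, of which 5 of 12 genes were limited by the selection, summed to 277 and 342 CPM, against 69.9 and 135 CPM in Basal cells and 2071 and 7240 CPM in the other left-out cells, led by Sparc with 181 UMIs in 53 and 497 UMIs in 131 cells, and Pdgfra and Lum were at 0. The rectum list summed to 104 and 202 CPM, against 15206 and 11527 CPM in Rectum cells. Between the libraries 4 of its 7 compared genes were higher in the wounded cells and none lower, where 7.75% and 8.36% of all genes were. Their median log2 ratio was 1.47, beside 0.97 in Basal and -0.40 in Rectum cells. The list was led by Krt8, a keratin of simple epithelia, with 46 UMIs in 30 and 120 UMIs in 72 cells, and Cdx2, the defining intestinal transcription factor, was at 0 in both libraries. Of the crypt stem cell list, Olfm4 and Cdx2 were at 0, and Smoc2, which bulge cells also express, gave 157 and 173 UMIs. The immune list stood at 5.32 and 15.7 CPM with Cd3e, Tyrobp, Fcer1g, Cd207 and Lyz2 at 0, and the melanocyte list at 13.8 and 11.3 CPM with Mlana, Tyrp1, Tyr and Sox10 at 0. The dermal papilla list stood at 20.2 and 6.38 CPM with Corin and Rspo2 at 0, the Merkel and endocrine list at 1.06 and 10.8 CPM with Neurod1 at 0, the glia list at 36.2 and 51.0 CPM with Sox10 and Cdh19 at 0, and the endothelium list at 463 and 101 CPM, against 7.76 and 1.22 CPM in Basal cells, led by Ccl21a. Only 1 normal and 2 wounded cells held 5 or more endothelium UMIs. Some members selected on Tbx1 alone held almost no keratin UMIs. A normal one had 3 UMIs of Tbx1, 1 of Krt14 and 0 of Krt5, Krt15 and Krt17. A wounded one had 6 of Tbx1, 2 of Krt14, 1 of Krt5 and 0 of Krt15 and Krt17, so the name may not hold for every member. The sort described by the study would remove leukocytes, endothelium and cells with PDGFRa. Their part in the results above was not tested beyond the values given without such cells.

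The reporter could be read in the normal library only, whose feature table holds ZsGreen1. Hair follicle cells held 11 UMIs of it, 11.7 CPM (5.84 to 20.9), against 13 UMIs or 4.81 CPM in Basal cells, 5.15 CPM in the other left-out cells, and 0 UMIs in 63 Rectum cells. It was found in 8.47% of the hair follicle cells before thinning and in 2 of 113 thinned cells, 1.77% (0.215 to 6.25), against 0 of 255 thinned Basal cells, for which the limit of 3 counts is 1.18%. With so few UMIs a difference between hair follicle and Basal cells was not detectable in the thinned shares, and Krt17, whose promoter drives the Cre, had a log2 ratio of 2.09 between these cells.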

How the data were processed

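UMIs were counted per gene and cell barcode in 2 libraries, 1 per condition. The authors deposited these UMI counts from Cell Ranger without normalization, and the file headers name version 3.1.0 for the normal and 4.0.0 for the wounded library, while the submitters' processing notes list Cell Ranger 3.1.0, Seurat 3.2.2 and mm10. The tables of named cells, which the authors deposited as natural log values with a cluster name per cell, were used only for their barcodes and names. Genes were matched between the libraries by Ensembl identifier (30406 shared), and gene positions came from GENCODE M21 (GRCm38).

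Counts were summed over cells and divided by the summed UMIs. Exact 95% intervals were Poisson for levels and binomial for the log2 ratio of 2 levels. A call needed 2-fold and an interval without 0, among genes with 20 or more UMIs in the 2 groups together. Against 0 UMIs, a ratio was bounded with 3 UMIs over the group. Shares of cells were thinned to 2000 UMIs with a fixed seed. The named genes were the 3 selecting genes, for each library the 15 genes with the largest ratio to Basal cells and 100 or more UMIs in the hair follicle cells, the 10 highest and 10 lowest of wounded over normal with 100 or more UMIs in either library (mitochondrial and ribosomal protein genes left out), and members of 30 gene lists where a list is reported. Members, lists and tests were chosen with earlier results of these data known. Scrublet in scanpy 1.11.5 called 4 of 1548 and 0 of 5225 cells doublets, so its calls were not used, and the 6% with the highest scores were left out as an alternative. The other alternatives were stricter filters on genes, mitochondrial UMIs, selecting UMIs and low counts, Lhx2 alone, no cells with 5 or more UMIs of the rectum, endothelium, muscle, immune, melanocyte or glia list, totals without mitochondrial and ribosomal protein genes, means of per-cell shares and other thinning depths. Settings without genes shared with Rectum cells and without genes held mostly by 1 cell were added after the data were seen. Ratios with their intervals were checked on simulated Poisson counts, which follow the model behind the intervals and leave out the clumping of UMIs in single cells. The check therefore does not cover that clumping. Python 3.11.15, numpy 2.4.6, scipy 1.17.1, pandas 2.3.3 and matplotlib 3.10.9 were used.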

Additional observations from a re-analysis of the deposited data

Results flagged for a closer look

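Some barcodes outside the filters also carried the selecting genes. Of the barcodes that failed a filter, 7 of 1016 in the normal and 47 of 11991 in the wounded library had 2 or more UMIs summed over Lhx2, Lgr5 and Tbx1, and 4 and 29 of them failed by their mitochondrial share. These barcodes entered no comparison.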

How the results depend on the processing

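With 1 library per condition, leaving out each library in turn was not possible. No paired analysis was possible because there is 1 library per condition and cells of a library carry no pairing. Counting error is the only error measured, so a difference between conditions has no check against the spread between mice.

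Over 14 alternative settings, 136 of 160 main values stayed and 24 moved. Of 473 values of single genes and lists 387 stayed, 82 moved and 4 turned sign from a value whose interval held no 0. A ratio, level or share stayed when it lay inside the interval of its main value, and a count when it lay within a fixed fold of its main value. Krt15 over Basal cells in the normal library and Sox9 between the libraries, whose intervals held 0, also turned sign under 3 settings each. Lhx2 alone, at 2 or more UMIs, left 72 normal and 126 wounded cells. With 100 or more UMIs per gene, the genes higher than Basal cells were 320 in the normal and 711 in the wounded library, those lower 210 and 465, and 253 were higher and 265 lower in wounded over normal cells. No cell cycle gene was then lower in the wounded cells, against 6 by the main rule, 10 with Lhx2 alone and 3 without genes shared with Rectum cells. Without genes past 2-fold the same way in Rectum cells, 432 were higher in the wounded cells. The thinned share of ZsGreen1 was 0% at 1000 and 6.25% at 4000 UMIs. Sox9 was found in 81.4% and 77.6% of normal and wounded cells with no thinning, in 36.4% and 33.3% at 1000 UMIs, and in 76.0% and 66.7% at 4000 UMIs. With no thinning, Krt15 was found in 74.6% and 76.7%, Krt42 in 25.1% of wounded and Postn in 35.6% of wounded cells. Krt15 was found in 53.0% of wounded cells at 1000 UMIs and in 60.5% of those under 10% mitochondrial UMIs, and Postn in 19.7% of the latter. Between the libraries, the log2 ratio of Krt17 was 0.0115 under 10% mitochondrial UMIs, that of Krt6a -0.23 with 3 or more selecting UMIs and -0.15 by the mean of per-cell shares, and that of Postn 0.19 by that mean. The cause was not tested.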
